A study of Homo sapiens with 12 samples.

Results

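Cisplatin-resistant RT4 cells were compared with parental RT4 cells across all genes of 1 table of counts. RT4 is an established human cell line from a papillary bladder tumour. The comparison uses 6 of the 12 samples of the series, 3 libraries of the resistant line and 3 taken as parental, and its members are all genes that passed a filter on low counts in these 6 libraries. Of 62700 genes listed, 32083 had a count and 16875 were tested. Both groups are labelled wild type in genotype, were grown in MEM medium with 10% fetal bovine serum at 37 °C in 5% CO2, and were bladder cancer cells in culture. The parental cells are labelled as treated with PBS and the resistant line as treated with cisplatin, with no dose, time or drug-free interval, so resistance of the line and exposure to the drug cannot be told apart. The labels do not say how the line was selected or whether it is 1 clone. The resistant columns carry the number of their sample, but the parental columns are headed NC. Taking them as parental is an inference: the series' vector controls fill columns of another table, and these stand next to the resistant ones. They are called parental a, b and c. Total counts were 35017033 to 38199946 in the parental and 31824582 to 36284997 in the resistant libraries. Nothing says that the 3 libraries of a group came from separate cultures, so the tests measure spread among libraries that may be technical only.

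Cisplatin is a platinum compound that enters cells partly through copper transporters and volume-regulated anion channels. It is bound by glutathione and metallothioneins, and forms adducts within and between the strands of DNA. Nucleotide excision repair removes adducts within a strand, while the Fanconi pathway and homologous recombination handle crosslinks between strands. Unrepaired adducts stall replication forks, hold cells before mitosis and can start apoptosis. Urothelial cancer cells also make cytokines, antimicrobial proteins and interferon-stimulated gene products, which are controlled by NF-kB and STAT factors.

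Levels are in CPM, the counts of a library brought to a common total, and scaled with TMM factors, which set libraries to a common composition. The value after ± is the standard deviation of 3 libraries for a level. For a log2 fold change, resistant over parental, it is the size of the change divided by the square root of the F statistic. That approximates a standard error and can be too small for large changes on few counts. A gene is called changed when its Benjamini-Hochberg adjusted p in edgeR's quasi-likelihood test was under 0.05 over all genes tested. By that rule 54.5% of the tested genes were called, 26.8% higher and 27.7% lower in resistant cells. Every list below is read against these shares. The 3 resistant libraries lay apart from the 3 parental ones on a first principal component with 92.4% of the variance, and the common biological coefficient of variation was 6.97%.

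The direction of small changes hung on the scaling. TMM factors were 0.942 to 0.949 in parental and 1.05 to 1.06 in resistant libraries. The median log2 fold change of all genes was 0.02 with TMM factors, 0.12 with upper quartile factors and 0.18 with library sizes alone. Of the called genes 49.1% were higher with TMM factors, 61.6% with upper quartile factors (5761 higher and 3584 lower) and 67.8% with library sizes alone (6548 higher and 3111 lower). Lists whose median or majority turned with a scaling are named where they are described. Of the genes given below as not called, VEGFA, ATF4, ISG15, RELB, RPL7A, MCM4 and MT-CO1 were called higher with library sizes alone, at log2 0.18, 0.18, 0.23, 0.30, 0.22, 0.15 and 0.19. Without resistant replicate 3, RELB, ISG15 and RPL7A were called higher and IFI44L lower, and without resistant replicate 1 HES1 and RPS27 were called lower. Where levels are given as one against the other, the parental mean comes first.

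Among abundant transcripts more were called lower than higher in resistant cells, and among scarce ones more were called higher than lower. Among 2370 genes averaging 100 CPM or more, 548 were called higher and 1328 lower, and of those changed over 2-fold 9 were higher and 122 lower. With library sizes alone the same genes were called 906 higher and 916 lower, but over 2-fold still 17 higher and 78 lower. Among 4205 genes at 1 to 10 CPM, 1387 were higher and 602 lower, and over 2-fold 496 and 219. Among 3366 genes under 1 CPM, 522 were higher and 194 lower, and most were not called. In all, 1164 called genes were over 2-fold higher and 773 lower, 276 and 151 were past 4-fold, and 30 and 15 past 16-fold.

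**Figure D1:**
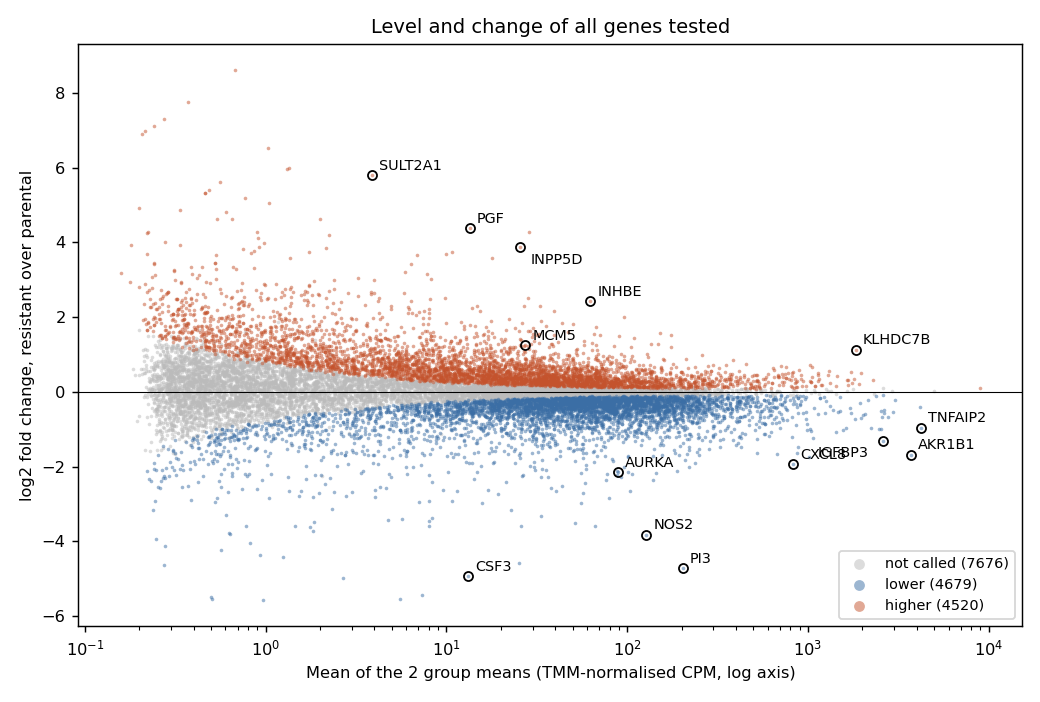
Each point is 1 of the 16875 tested genes. The x axis gives its level as the mean of both group means in TMM-normalised CPM on a log axis, the y axis its log2 fold change, resistant over parental. Colours mark genes called higher (4520), lower (4679) or not called. PI3, NOS2, CXCL8 and AKR1B1 lie far below 0 at high levels, while the large increases such as SULT2A1 lie at low levels.

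**Figure D2:**
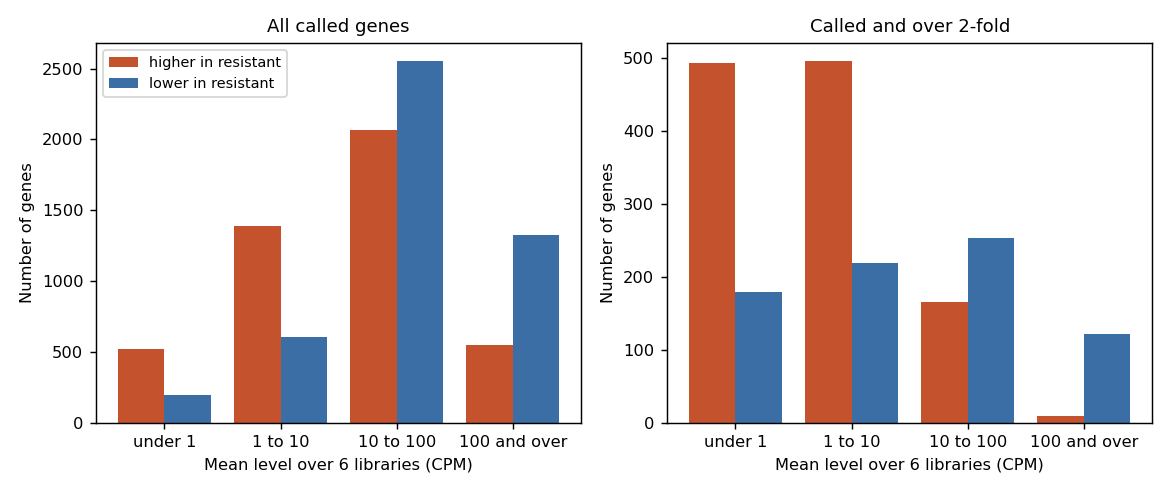
Bars count called genes by mean level over the 6 libraries, higher (orange) and lower (blue) in resistant cells. The left panel holds all called genes and the right panel those changed over 2-fold. At 100 CPM and over, 9 genes rose and 122 fell over 2-fold with TMM factors.

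The 9 abundant genes that rose over 2-fold were ODC1, CYP4B1, TM7SF3, FGFR3, CAT, DUSP4, GADD45A, KLHDC7B and UCP2, a set read off their values. ODC1, ornithine decarboxylase, the first enzyme of polyamine synthesis, stood at 79.4, 71.2 and 78.5 CPM in the parental libraries and 222, 234 and 228 CPM in the resistant libraries. CAT, the peroxisomal catalase that breaks down hydrogen peroxide, stood at 87.96, 86.4 and 85.8 CPM in the parental libraries and 212, 217 and 201 CPM in the resistant libraries. GADD45A, a stress-induced growth arrest gene, rose from 107 ± 3.76 to 245 ± 15.5 CPM. In each of the 9 all 3 resistant libraries lay above all 3 parental ones, but the groups did not overlap in 60.8% of all genes tested. KLHDC7B, a kelch-domain gene, gained the most CPM of any called gene. It stood at 1142, 1165 and 1164 CPM in the parental libraries and 2684, 2483 and 2386 CPM in the resistant libraries (log2 1.12 ± 0.039, adjusted p = 1.68e-13).

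The largest loss in CPM was that of AKR1B1, aldose reductase, which reduces glucose to sorbitol and detoxifies aldehydes. It stood at 5630, 5583 and 5728 CPM in the parental libraries and 1847, 1741 and 1673 CPM in the resistant libraries (log2 -1.69 ± 0.035, adjusted p = 4.81e-16). TNFAIP2, a TNF-induced gene, fell from 5584 ± 82.5 to 2878 ± 83.2 CPM, and IGFBP3, a secreted binder of insulin-like growth factors, from 3711 ± 20.6 to 1494 ± 45.5 CPM. Next by loss of CPM came 5 interferon-stimulated genes, OAS1, CXCL10, RSAD2, OAS3 and IFIT3. Besides KLHDC7B, gains in CPM were led by the cytoplasmic actin ACTG1 (1619 to 2308 CPM), the translation factor EEF1A1 (8576 to 9235 CPM), the keratin KRT17 (1061 to 1570 CPM), the ribosomal genes RPL4, RPLP0 and RPL6, and the mitochondrial MT-CO3. For EEF1A1 that is a log2 fold change of 0.11 (adjusted p = 0.00382), a small change at a high level.

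**Figure D3:**
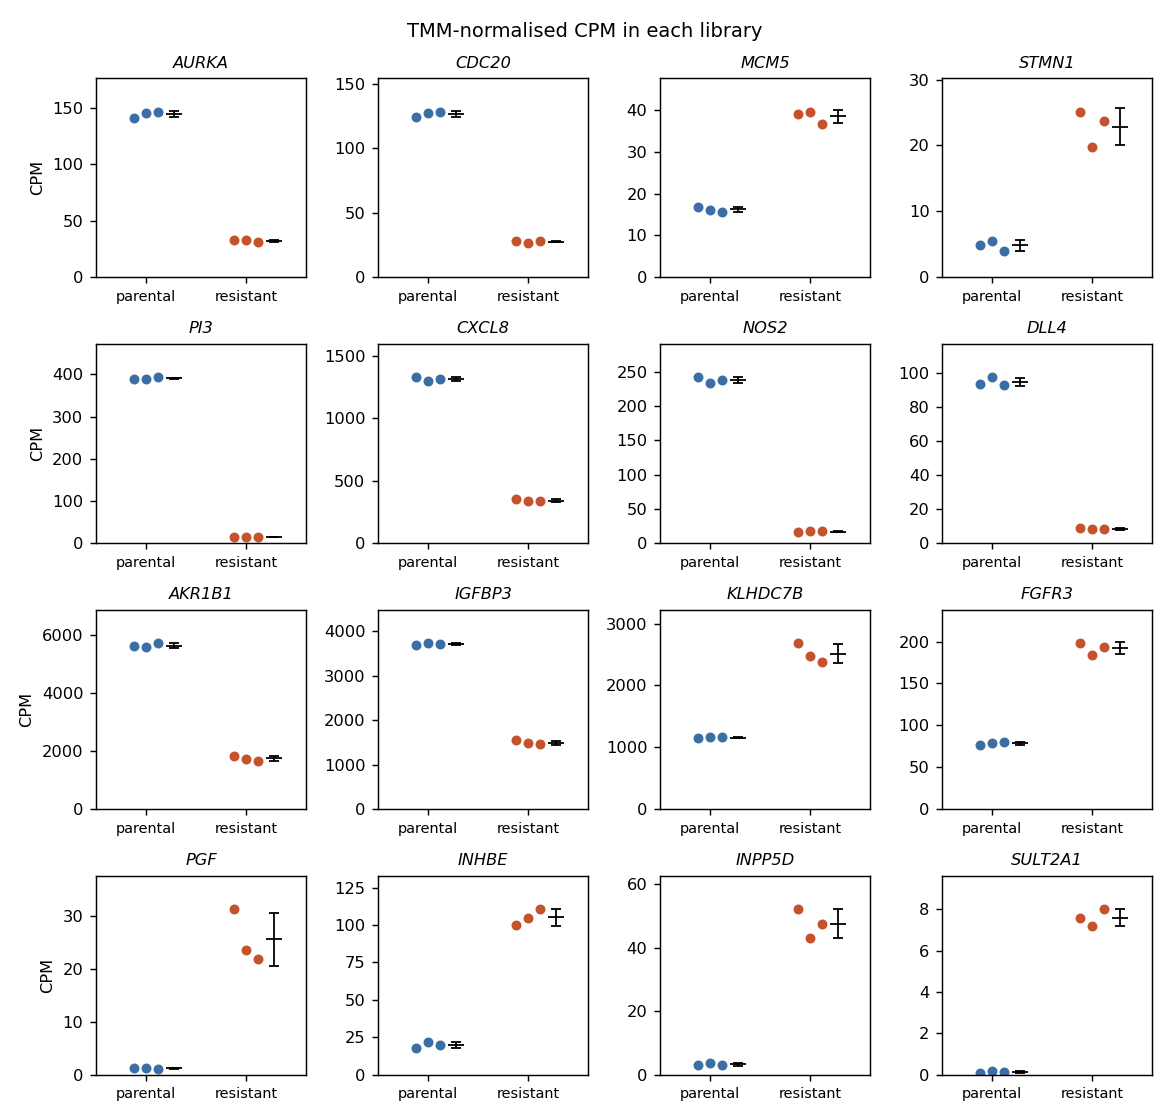
TMM-normalised CPM of 16 genes in each library, parental a, b and c (blue) and resistant 1, 2 and 3 (orange), with the mean and standard deviation of 3 libraries in black on axes from 0. In every panel the groups do not overlap, as in 60.8% of all genes tested. MCM5, STMN1, KLHDC7B, FGFR3, PGF, INHBE, INPP5D and SULT2A1 are higher in resistant libraries and the other 8 lower.

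The label of the cells was checked against markers. All 6 libraries expressed the simple keratins KRT7, KRT8, KRT18 and KRT19, the urothelial factors GATA3, FOXA1 and PPARG, and the uroplakins UPK1B, UPK2 and UPK3A, while UPK1A and KRT20 did not pass the filter. Of 24 tested urothelial genes 9 were higher and 13 lower (median log2 -0.22). UPK1B, a membrane plaque protein, fell from 70.3 ± 2.17 to 28.7 ± 1.69 CPM, and UPK3A rose from 1.57 ± 0.680 to 4.79 ± 0.162 CPM. Of 9 fibroblast markers 3 had no count in any library and 2 passed the filter, and their summed level was 12.1 to 12.2 CPM in parental and 4.48 to 5.86 CPM in resistant libraries, nearly all of it COL1A1 (11.7 against 4.67 CPM), while COL3A1 rose from 6 counts in the parental to 42 in the resistant libraries (log2 2.68, and 3.58 without parental replicate a). Of 6 endothelial markers 1 passed, with a sum of 1.23 to 1.67 and 0.71 to 2.56 CPM. Of 8 leukocyte and blood markers 2 passed, with a sum of 20.3 to 23.7 and 14.9 to 15.9 CPM, led by the integrin ITGAM (21.6 against 14.96 CPM). PTPRC, the common leukocyte antigen, and PECAM1, the common endothelial one, did not pass the filter.

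Genes of mitosis were lower in resistant cells without exception in a list of 40, with a median log2 fold change of -1.43 against 0.02 for all genes. Their summed level was 4185 to 4202 CPM in parental and 1511 to 1594 CPM in resistant libraries, and 37 of the 40 fell over 2-fold, against 4.57% of all genes tested. With library sizes alone 39 of 40 were called lower and none higher. In a bulk library, fewer cells in a phase and less transcript per cell cannot be told apart.

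The kinesin KIF20A, which works at the cleavage furrow, had the largest fall of the list, from 60.5 ± 2.299 to 12.5 ± 1.43 CPM (log2 -2.27 ± 0.079). HMMR, a spindle-associated hyaluronan receptor, fell from 43.3 ± 1.04 to 9.13 ± 0.961 CPM. CDC20, which activates the anaphase-promoting complex, stood at 124, 128 and 128 CPM in the parental libraries and 27.8, 26.9 and 27.96 CPM in the resistant libraries (log2 -2.20 ± 0.051, adjusted p = 1.70e-15). AURKA, the kinase that matures centrosomes, stood at 141, 146 and 147 CPM in the parental libraries and 33.3, 32.8 and 31.4 CPM in the resistant libraries (log2 -2.15 ± 0.050, adjusted p = 1.70e-15). PLK1, the polo kinase of mitotic entry, stood at 97.4, 92.3 and 98.4 CPM in the parental libraries and 24.1, 23.5 and 21.4 CPM in the resistant libraries. For each of these genes the lowest parental value was over 3 times the highest resistant one, and libraries within a group lay close together. The cyclin gene CCNB1 fell from 238 to 74.02 CPM, the proliferation marker MKI67 from 327 to 104 CPM, and TOP2A, the topoisomerase that untangles chromosomes, from 367 to 119.6 CPM. The smallest falls were those of CKAP2, a spindle protein (log2 -0.20, and -0.03 and not called with library sizes alone), MAD2L1 (-0.75), a checkpoint protein, and AURKB (-0.91), the kinase of the chromosomal passenger complex.

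DNA replication genes were split. Of 40, 15 were higher, 10 lower and 15 not called (19 higher and 4 lower with library sizes alone), with a median log2 fold change of 0.02, and their summed level was 1523 to 1551 CPM in parental and 1706 to 1760 CPM in resistant libraries. The helicase subunits split. MCM6 rose from 17.2 ± 1.52 to 41.96 ± 3.73 CPM (log2 1.29 ± 0.084), and MCM5 stood at 16.8, 16.1 and 15.7 CPM in the parental libraries and 39.04, 39.6 and 36.7 CPM in the resistant libraries (log2 1.25 ± 0.072, adjusted p = 1.37e-10). MCM2, MCM3 and MCM7 rose by smaller amounts, by 0.71, 0.43 and 0.49, while MCM4 was not called, at 113 against 112 CPM. DUT, which clears dUTP, TYMS, which makes thymidylate, and LIG1, the ligase that joins Okazaki fragments, also rose, by 1.22, 1.09 and 1.08. PCNA, the sliding clamp, rose from 87.6 ± 2.19 to 145 ± 11.8 CPM. The largest falls were those of ORC1 (log2 -0.57), ORC6 (-0.47) and the polymerase subunit POLA2 (-0.45). The call of POLA2 was lost without resistant replicate 3, at log2 -0.35 (adjusted p = 0.0619).

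Among regulators of G1 and S phase 7 of 21 were higher and 9 lower (median log2 -0.13, which turned to 0.04 with library sizes alone, with 7 higher and 6 lower). E2F1, an activator of S-phase genes, rose from 5.13 ± 0.565 to 12.2 ± 0.827 CPM, CCNE2 and CCNE1, the E cyclins, rose by 1.03 and 0.69, and CDK4 by 0.71. E2F2 fell from 8.89 ± 1.59 to 3.56 ± 0.0532 CPM, E2F8, a repressor of the family, fell by 0.64 on the log2 scale, and CDKN1B, the inhibitor p27, went from 114 to 74.4 CPM. STMN1, which destabilises microtubules and so might be counted with mitosis, was among the 12 largest increases of the genes ranked at a mean of at least 10 CPM. Many scarcer genes rose further. STMN1 stood at 4.95, 5.58 and 3.96 CPM in the parental libraries and 25.1, 19.7 and 23.7 CPM in the resistant libraries (log2 2.24 ± 0.13). Of 14 tested histone genes 2 rose and 3 fell (with library sizes alone 5 and 2). Reads of histone genes can be shared between close copies.

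Promoters of both groups are shown because the lists differed in the short sequences they hold. The bases are the 250 before the RefSeq gene start on GRCh38.p14, in the direction of the gene. Capitals mark the cell cycle homology region, searched as TTTGAA or TTTAAA on both strands, in CDC20 (chr1:43358731-43358980 on the plus strand) and PLK1 (chr16:23678639-23678888 on the plus strand), and the E2F motif, searched as TTTCCCGC or TTTGGCGC on both strands, in MCM6 (chr2:135876444-135876693 on the minus strand) and LIG1 (chr19:48170345-48170594 on the minus strand).
CDC20: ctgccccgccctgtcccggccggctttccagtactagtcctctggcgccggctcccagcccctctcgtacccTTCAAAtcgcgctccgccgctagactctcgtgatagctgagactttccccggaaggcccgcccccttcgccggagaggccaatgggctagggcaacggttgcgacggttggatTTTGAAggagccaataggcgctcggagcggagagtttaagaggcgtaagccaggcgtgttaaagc
PLK1: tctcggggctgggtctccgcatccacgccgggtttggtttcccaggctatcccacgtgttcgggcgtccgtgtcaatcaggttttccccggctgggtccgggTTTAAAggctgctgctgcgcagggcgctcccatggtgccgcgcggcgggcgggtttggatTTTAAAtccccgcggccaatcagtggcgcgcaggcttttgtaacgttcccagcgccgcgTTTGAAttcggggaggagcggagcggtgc
MCM6: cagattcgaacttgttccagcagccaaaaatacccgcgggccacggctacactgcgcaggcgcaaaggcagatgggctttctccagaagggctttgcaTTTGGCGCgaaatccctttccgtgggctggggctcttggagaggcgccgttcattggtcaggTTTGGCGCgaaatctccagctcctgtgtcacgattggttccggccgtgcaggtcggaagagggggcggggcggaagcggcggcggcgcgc
LIG1: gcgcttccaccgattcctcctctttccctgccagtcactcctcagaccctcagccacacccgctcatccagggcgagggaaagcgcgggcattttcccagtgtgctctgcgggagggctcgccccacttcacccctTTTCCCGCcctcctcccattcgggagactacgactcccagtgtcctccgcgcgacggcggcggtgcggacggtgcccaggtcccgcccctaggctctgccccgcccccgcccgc
The first motif lay in 24 of 33 mitotic promoters (72.7%), in 3 of 35 replication promoters (8.57%), in 14.7% of the promoters of all tested genes and in 22.1% of all 27305 promoters. The E2F motif lay in 12 of 35 replication promoters (34.3%), in 1 of 33 mitotic promoters (3.03%), in 3.04% of those of tested genes and in 1.96% of all promoters. Among genes over 2-fold lower the first motif was in 28.7% of promoters, and among those over 2-fold higher in 15.4%. These are matches of letters and show no binding. TTTAAA can also be part of a TATA-like stretch.

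Genes for repair of crosslinks were lower more often than higher, 15 of 27 against 5 (median log2 -0.27, and 11 against 8 with library sizes alone). No called member changed over 2-fold. BRIP1, a helicase that works with BRCA proteins, fell from 103 ± 1.31 to 52.00 ± 3.36 CPM, BARD1 from 21.4 ± 0.579 to 12.01 ± 0.721 CPM, and SLX4, a scaffold of structure-specific nucleases, from 13.7 ± 0.770 to 8.72 ± 0.390 CPM. RBBP8, also called CtIP, which starts end resection, rose from 20.8 ± 1.38 to 39.01 ± 2.05 CPM, and FANCF and RAD51C rose by 0.46 and 0.44.

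Excision repair genes went the other way, with 13 of 23 higher and 2 lower (median 0.22). DDB2, the sensor of ultraviolet and other helix-distorting lesions, stood at 14.4, 14.5 and 13.8 CPM in the parental libraries and 45.3, 44.8 and 48.8 CPM in the resistant libraries (log2 1.70 ± 0.071, adjusted p = 1.73e-12). XPC, which recognises distorted DNA, rose from 16.4 ± 0.527 to 27.4 ± 1.51 CPM, its partner CETN2 from 10.04 ± 1.300 to 17.4 ± 1.19 CPM, and ERCC1, a subunit of the nuclease that cuts on the 5′ side of an adduct, from 21.8 ± 0.799 to 33.5 ± 1.603 CPM. ERCC3, a helicase of TFIIH, fell from 95.1 ± 1.805 to 72.3 ± 1.88 CPM. RAD23B was called lower at log2 -0.14, but stood at 0.02 with library sizes alone.

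Copper and platinum transport genes were mixed: 4 of 16 rose and 6 fell (median log2 -0.12, turning to 0.05 with library sizes alone, with 6 higher and 5 lower). SLC31A1, the copper importer CTR1, went from 103 ± 6.197 to 94.03 ± 2.79 CPM (log2 -0.14 ± 0.052), a call that stood at 0.03 with library sizes alone and was lost without parental replicate a or b or resistant replicate 1 or 3 (adjusted p = 0.057 to 0.178). The copper-exporting ATPase ATP7A fell from 29.9 ± 0.971 to 19.7 ± 1.801 CPM, and its relative ATP7B stood at 5.99 against 5.99 CPM and was not called. ABCC2, a multidrug transporter that exports glutathione conjugates, fell from 1.86 ± 0.0850 to 0.922 ± 0.271 CPM, and ABCC1 from 40.8 ± 0.944 to 22.2 ± 3.69 CPM. ABCG2, another drug exporter, rose from 5.38 ± 0.437 to 11.6 ± 1.03 CPM, and ABCC3 from 338 ± 6.43 to 567 ± 11.6 CPM. LRRC8A and LRRC8D, subunits of a volume-regulated channel that also carries cisplatin, fell by 0.33 and 0.40 on the log2 scale. ABCB1 did not pass the filter.

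Genes of glutathione and the NRF2 response were lower in 23 of 33 and higher in 5 (median log2 -0.32, and 20 and 9 with library sizes alone). PGD, an enzyme of the pentose phosphate pathway, stood at 596, 583 and 584 CPM in the parental libraries and 219.6, 222 and 212 CPM in the resistant libraries (log2 -1.43 ± 0.037). AKR1B10, an aldo-keto reductase, fell from 174 ± 4.796 to 38.3 ± 0.699 CPM, AKR1C1 from 1314 ± 14.7 to 425 ± 19.6 CPM, and TXNRD1, thioredoxin reductase, from 1944 ± 19.2 to 929 ± 52.6 CPM. GCLM, which modifies the first enzyme on the path to glutathione, fell from 1282 ± 3.57 to 708 ± 13.4 CPM. GSS, the second enzyme of the pathway, rose from 74.6 ± 3.35 to 96.3 ± 6.100 CPM. GSTA1, a glutathione transferase, had 2 counts in all parental libraries against 123 in the resistant ones. Scaled by library size and TMM factor, that is 58.5-fold more (exact 95% interval for counting error 15.9 to 489). Without parental replicate a its fitted log2 fold change went from 5.61 to 8.30. Reads of aldo-keto reductases and alpha-class transferases can be shared between relatives. Of 6 tested genes of metallothioneins and their zinc partners, the metal binder MT2A fell from 105 ± 2.02 to 55.2 ± 5.16 CPM, the factor MTF1 that induces it fell from 102 ± 5.29 to 69.7 ± 6.01 CPM, and the zinc exporter SLC30A1 rose from 127 ± 8.58 to 162 ± 5.42 CPM.

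Apoptosis genes were lower in 18 of 31 and higher in 6 (median log2 -0.35). The caspase inhibitor BIRC3, also an NF-kB target, fell from 384 ± 2.23 to 118 ± 8.36 CPM, and CFLAR, which blocks caspase 8, from 226 ± 4.58 to 98.3 ± 2.299 CPM. The death ligand TNFSF10, or TRAIL, stood at 599.9, 571 and 593 CPM in the parental libraries and 269.5, 286 and 266 CPM in the resistant libraries. BMF, a sensor that binds BCL2 proteins, fell from 11.5 ± 1.39 to 3.58 ± 0.893 CPM, BID from 170.4 ± 4.77 to 98.2 ± 6.05 CPM, and the initiator caspases CASP8 and CASP10 by 0.70 and 0.99 on the log2 scale. HRK, another BCL2-binding sensor, rose from 6.55 ± 1.16 to 22.2 ± 0.753 CPM, BCL2 itself from 10.7 ± 0.914 to 19.6 ± 1.77 CPM, and BAX, which opens the mitochondrial membrane, from 90.6 ± 0.675 to 139 ± 7.24 CPM. XIAP, at 92.7 against 90.3 CPM, and BCL2L11, at 51.1 against 46.9 CPM, were not called.

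Of 28 cytokine and NF-kB target genes, 26 were called lower and none higher. Their median log2 fold change was -1.03, and 15 called members fell over 2-fold, against 4.57% of all genes tested. CXCL8, the neutrophil chemokine, stood at 1325, 1296 and 1311 CPM in the parental libraries and 355, 333 and 334 CPM in the resistant libraries (log2 -1.94 ± 0.037, adjusted p = 1.42e-16). CXCL1 and CXCL6, its neighbours on chromosome 4, fell from 328 ± 9.31 to 91.9 ± 12.5 CPM and from 99.2 ± 2.16 to 15.2 ± 0.899 CPM. BCL2A1, CSF3 and TNFAIP6 had the largest falls. TNFAIP6, a hyaluronan-binding protein induced by TNF, stood at 48.6, 47.1 and 49.5 CPM in the parental libraries and 1.55, 2.55 and 1.97 CPM in the resistant libraries. CSF3, a granulocyte growth factor, stood at 25.8, 23.4 and 26.9 CPM in the parental libraries and 0.658, 1.42 and 0.388 CPM in the resistant libraries, and without resistant replicate 2, the highest of its group, its change went from -4.94 to -5.61. PTGS2, the inducible cyclooxygenase, fell from 236 ± 5.32 to 52.1 ± 3.13 CPM, ICAM1, an adhesion receptor for leukocytes, from 12.5 ± 0.368 to 1.62 ± 0.126 CPM, and the feedback inhibitor TNFAIP3, also called A20, from 295 ± 4.71 to 91.1 ± 2.200 CPM. The NF-kB subunit genes moved less: NFKB1 and REL fell by 0.60 and 0.55 on the log2 scale, NFKB2 by 0.33, and RELB was not called at 81.4 against 89.4 CPM. IL1B, interleukin 1 beta, fell by 0.42.

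The letters GGGA and CC with 4 bases of any kind between them, a core of NF-kB sites read on both strands, lay in 17 of 27 promoters of this list (63.0%), in 27.4% of those of tested genes and in 22.1% of all promoters. It lay in 28.7% of the promoters of genes over 2-fold lower and in 29.7% of those over 2-fold higher. The promoter of CXCL8 (chr4:73740319-73740568 on the plus strand) is shown with the match in capitals, as that of a marker gene of the comparison. The match is of letters only and shows no binding, and NF-kB sites spelled otherwise are not marked.
CXCL8: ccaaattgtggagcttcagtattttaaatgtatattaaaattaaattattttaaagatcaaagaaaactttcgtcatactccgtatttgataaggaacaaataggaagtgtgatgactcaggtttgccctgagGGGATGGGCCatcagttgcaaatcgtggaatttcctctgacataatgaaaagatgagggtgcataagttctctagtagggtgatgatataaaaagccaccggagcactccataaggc

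Genes of secreted defence, which coat epithelia with antimicrobial proteins and protease inhibitors, had the lowest median of the lists. Of 24 tested, 23 were lower and 1 higher, with a median log2 fold change of -2.33. Of these genes 21 fell over 2-fold, against 4.57% of all genes tested. PI3, the elastase inhibitor elafin, stood at 390.0, 389 and 393 CPM in the parental libraries and 14.6, 14.3 and 15.3 CPM in the resistant libraries (log2 -4.72 ± 0.050, adjusted p = 4.79e-20), so the parental values were over 25 times the resistant ones. S100A8, a subunit of calprotectin, fell from 123 ± 1.796 to 10.2 ± 0.927 CPM and its partner S100A9 from 1567 ± 9.05 to 469 ± 44.95 CPM. The peptidoglycan-binding genes PGLYRP2, PGLYRP3 and PGLYRP4 all fell, with log2 fold changes of -3.59, -3.43 and -2.63. SLPI, a second protease inhibitor, fell from 353 ± 7.57 to 87.8 ± 7.54 CPM, LCN2, which withholds iron from bacteria, from 1292 ± 29.3 to 467 ± 36.4 CPM, and PIGR, which carries antibodies across epithelia, from 98.8 ± 3.19 to 18.2 ± 1.598 CPM. The acute-phase genes SAA1 and SAA2 fell by 2.65 and 2.58 on the log2 scale, and their reads can be shared. SERPINB13 was the 1 higher member (0.35), and its call was lost without resistant replicate 1 or 3 or any parental library, with adjusted p = 0.0624 to 0.165.

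Other genes of host defence fell as far. NOS2, the inducible nitric oxide synthase, stood at 242, 233 and 238 CPM in the parental libraries and 16.1, 17.2 and 16.99 CPM in the resistant libraries (log2 -3.82 ± 0.052). DUOX2, which makes hydrogen peroxide at epithelial surfaces, fell from 98.3 ± 4.42 to 12.5 ± 1.97 CPM, and IL36G, an epithelial interleukin, from 47.6 ± 0.907 to 3.93 ± 0.323 CPM. TNFRSF1B, the second TNF receptor, fell from 19.1 ± 1.46 to 2.53 ± 0.441 CPM, and C15orf48, a small mitochondrial protein gene induced by inflammation, from 139 ± 1.31 to 19.6 ± 0.589 CPM. In each of these 5 genes the lowest parental value was over 6 times the highest resistant one. Complement genes were mixed, 4 of 11 higher and 5 lower (the reverse with library sizes alone): the proteases C1S and C1R fell from 624 ± 6.74 to 226 ± 5.86 CPM and from 521 ± 2.39 to 262 ± 16.4 CPM, while C5 rose from 13.8 ± 0.721 to 42.9 ± 2.68 CPM. Of 10 tested mucin and CEACAM genes 7 fell and 1 rose, with CEACAM7, CEACAM6 and CEACAM5 in front: CEACAM7 stood at 41.8, 41.4 and 39.1 CPM in the parental libraries and 3.95, 4.73 and 4.95 CPM in the resistant libraries. CEACAM reads can be shared between relatives.

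Of 43 interferon-stimulated genes, 38 were called lower and 1 higher. Their median log2 fold change was -0.60, a smaller shift than in the NF-kB list but in very abundant transcripts. Their summed level went from 50930 to 51590 CPM in parental to 32380 to 33860 CPM in resistant libraries. OAS1, which senses double-stranded RNA, stood at 3416, 3382 and 3398 CPM in the parental libraries and 1719, 1743 and 1645 CPM in the resistant libraries, and CXCL10, a chemokine for T cells, at 3338, 3250 and 3301 CPM in the parental libraries and 1641, 1744 and 1617 CPM in the resistant libraries. IFI27 fell from 136 ± 40.6 to 53.2 ± 7.16 CPM, SAMD9 from 1502 ± 21.6 to 640.3 ± 45.3 CPM, and GBP1, a guanylate-binding protein, from 1146 ± 8.05 to 492 ± 13.1 CPM. RSAD2, or viperin, fell from 2962 ± 10.1 to 1519 ± 81.1 CPM. Not all members moved: ISG15, the ubiquitin-like modifier, was not called at 1748 against 1828 CPM, nor was IFI44L at 649 against 614 CPM. IRF7, a factor that amplifies the response, stood at log2 -1.59, but at -0.52 and not called when parental replicate b was left out (adjusted p = 0.203), and its adjusted p was 0.0936 with DESeq2. The 1 higher member, IFITM2, stood at 0.143 against 0.428 CPM, and its call was lost without any library other than parental replicate a (adjusted p = 0.0663 to 0.128). Its reads can be shared with IFITM1 and IFITM3.

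The interferon response element, searched on both strands as GAAA and GAAA with 2 bases of any kind between them, lay in 21 of 34 promoters of the list (61.8%), against 2.29% of those of tested genes and 3.07% of all promoters. Among genes over 2-fold lower it lay in 3.59%, and among those over 2-fold higher in 0.833%. SAMD9 (chr7:93117980-93118229 on the minus strand) and GBP1 (chr1:89065209-89065458 on the minus strand) are shown from the called members with the smallest p that hold it, with the match in capitals.
SAMD9: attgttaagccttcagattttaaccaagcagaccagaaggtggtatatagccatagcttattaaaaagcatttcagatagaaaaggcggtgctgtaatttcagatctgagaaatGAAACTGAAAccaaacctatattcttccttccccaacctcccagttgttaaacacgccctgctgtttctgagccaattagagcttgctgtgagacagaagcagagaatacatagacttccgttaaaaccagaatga
GBP1: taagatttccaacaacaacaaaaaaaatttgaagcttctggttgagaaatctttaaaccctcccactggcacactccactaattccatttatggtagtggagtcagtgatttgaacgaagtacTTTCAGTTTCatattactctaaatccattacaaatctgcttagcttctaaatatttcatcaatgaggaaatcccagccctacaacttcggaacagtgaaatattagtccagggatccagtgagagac

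Of 11 tested antigen presentation genes 9 were lower and none higher (median log2 -0.51, and 7 and 1 with library sizes alone). CIITA, the activator of class II genes, fell from 49.1 ± 2.62 to 27.5 ± 0.365 CPM, its class I counterpart NLRC5 from 140.5 ± 3.897 to 85.9 ± 1.65 CPM, and ERAP2, a peptide-trimming enzyme, from 177 ± 4.38 to 103 ± 4.103 CPM. The shared light chain gene B2M fell from 3070 ± 66.5 to 2180 ± 93.97 CPM. HLA-C, TAP1, TAP2, PSMB8 and PSMB9 did not pass the filter, HLA-B stood at only 2.62 against 1.48 CPM, and class I reads can be shared between genes, so this list is seen in part. Of 12 checkpoint ligands and related genes 8 were lower and 2 higher (median -0.66). The 2 higher were PVR, at 110 against 120 CPM (log2 0.12), and VTCN1, at 6 against 64 counts (log2 3.26). IDO1, which degrades tryptophan, stood at 385, 357 and 379 CPM in the parental libraries and 104, 99.98 and 95.4 CPM in the resistant libraries (log2 -1.91 ± 0.046), CD274, which encodes PD-L1, fell from 45.4 ± 1.75 to 22.7 ± 1.404 CPM, and PDCD1LG2 from 2.37 ± 0.600 to 0.892 ± 0.215 CPM.

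Basal and squamous genes were mixed. Of 19 tested, 6 were higher and 9 lower (median log2 -0.41, and 7 and 7 with library sizes alone). TGM1, which cross-links proteins of the cornified envelope, rose (log2 0.66 ± 0.19). SPRR1A, a small proline-rich protein of the cornified envelope, stood at 149, 140.1 and 145 CPM in the parental libraries and 32.3, 31.2 and 29.5 CPM in the resistant libraries (log2 -2.22 ± 0.053), and LY6D, a surface marker, fell from 36.3 ± 0.977 to 15.5 ± 1.32 CPM. The basal keratin KRT17 stood at 1062, 1045 and 1076 CPM in the parental libraries and 1736, 1553 and 1422 CPM in the resistant libraries (log2 0.57 ± 0.051), KRT16 rose from 31.1 ± 0.816 to 48.7 ± 3.55 CPM, and KRT6A from 9.06 ± 0.765 to 16.8 ± 1.82 CPM, while KRT6B fell from 8.46 ± 1.005 to 2.64 ± 0.357 CPM. Reads of KRT6 copies can be shared. KRT5, the keratin of basal cells, was at 0.111, 0.0301 and 0.533 CPM in parental and 3.98, 4.703 and 4.07 CPM in resistant libraries. Its log2 fold change of 4.20 ± 0.43 was 5.81 without parental replicate c and 4.84 with limma-voom. KRT13, of intermediate layers, fell from 14.9 ± 0.657 to 7.43 ± 0.905 CPM.

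Junction genes were lower in 14 of 24 and higher in 2 (median log2 -0.22, and 9 and 5 with library sizes alone). TJP3, a scaffold of tight junctions, stood at 69.01, 73.3 and 64.99 CPM in the parental libraries and 30.8, 27.8 and 25.3 CPM in the resistant libraries, and CDH1, E-cadherin, fell from 578 ± 11.1 to 448 ± 17.97 CPM. DSG2, a desmosomal cadherin, rose from 110.0 ± 1.605 to 136 ± 10.2 CPM. Integrin and laminin genes were lower in 15 of 24 and higher in 8 (median -0.28, and 10 and 9 with library sizes alone). The laminin chain genes LAMA3 and LAMB3 fell from 97.01 ± 1.504 to 49.7 ± 3.602 CPM and from 814 ± 12.2 to 459 ± 13.4 CPM. ITGB4, the laminin-binding integrin subunit of hemidesmosomes, stood at 602, 598 and 600.3 CPM in the parental libraries and 848, 831 and 832 CPM in the resistant libraries, higher by 0.48 ± 0.033 on the log2 scale (adjusted p = 1.45e-09). Its partner ITGA6 was lower by 0.36 on the same scale, and STAT3 stood at 438, 440.0 and 438 CPM in the parental libraries and 318, 315 and 332 CPM in the resistant libraries. ITGB8 fell from 62.7 ± 1.89 to 18.1 ± 0.830 CPM, LAMB2 rose from 37.3 ± 1.53 to 77.4 ± 2.57 CPM, and LAMA1 had 4 counts in parental against 294 in resistant libraries, all 4 in parental b. That is 69.9-fold more after the same scaling as for GSTA1 (interval 27.0 to 258), and the fitted change went from 5.99 to 9.60 without that library.

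Mesenchymal genes were mixed, 8 of 19 higher and 5 lower, and VIM, CDH2 and TWIST1 did not pass the filter. TGFBI, a matrix protein induced by TGF-beta, stood at 1.34, 1.39 and 1.96 CPM in the parental libraries and 14.7, 13.5 and 13.9 CPM in the resistant libraries (log2 3.16 ± 0.15), MMP7, a matrix protease of epithelia, rose from 1.67 ± 0.342 to 8.21 ± 1.29 CPM, and the receptor gene TGFBR1 from 3.78 ± 0.188 to 10.5 ± 1.06 CPM. COL1A1 fell from 11.7 ± 0.129 to 4.67 ± 0.689 CPM and MMP1 from 35.7 ± 0.892 to 15.6 ± 1.22 CPM.

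FGFR3, a receptor often active in papillary bladder cancer, rose, and in RT4 cells it is known to be fused to TACC3. FGFR3 stood at 75.97, 78.9 and 80.05 CPM in the parental libraries and 198, 184 and 194 CPM in the resistant libraries (log2 1.29 ± 0.046, adjusted p = 2.62e-13), and TACC3 rose from 218 ± 5.46 to 324 ± 21.8 CPM. Counts per gene cannot separate a fusion transcript from the intact genes. Of the EGF family 4 of 16 rose and 8 fell (median log2 -0.29). The neuregulins NRG1 and NRG2 rose from 2.92 ± 1.401 to 16.7 ± 0.728 CPM and from 1.26 ± 0.276 to 7.19 ± 0.560 CPM, and AREG, amphiregulin, from 2.29 ± 0.283 to 9.91 ± 0.754 CPM. The receptor gene ERBB3 fell from 310.2 ± 1.83 to 178 ± 13.4 CPM, and HBEGF and EGF fell by 0.79 and 1.19 on the log2 scale. Output genes of the ERK pathway were even, 8 of 23 higher and 8 lower (11 and 6 with library sizes alone). Among the MAP kinase phosphatases DUSP4 rose from 63.00 ± 3.37 to 146 ± 3.01 CPM and DUSP5 fell from 418 ± 6.46 to 179 ± 2.39 CPM. The immediate-early genes EGR1 and FOSB rose, by 1.21 and 2.99.

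Secreted growth factors included the largest increase among the genes ranked at a mean of 10 CPM or more. PGF, placental growth factor, a ligand of the VEGF receptor FLT1, stood at 1.34, 1.24 and 1.12 CPM in the parental libraries and 31.4, 23.7 and 22.01 CPM in the resistant libraries (log2 4.38 ± 0.16, adjusted p = 2.62e-13). All 3 resistant values were over 16 times every parental one, and resistant replicate 1 was the highest. VEGFA was not called, at 1646 against 1661 CPM. INHBE, which encodes an activin subunit and is induced by stress of the endoplasmic reticulum, stood at 17.7, 21.7 and 19.6 CPM in the parental libraries and 99.8, 105 and 111 CPM in the resistant libraries. IGFBP5 rose from 2.47 ± 0.436 to 13.7 ± 1.15 CPM and PDGFA from 1.76 ± 0.182 to 5.16 ± 0.433 CPM, while FGFBP1, a carrier of fibroblast growth factors, fell from 54.8 ± 0.245 to 24.5 ± 2.09 CPM and NRP2, a co-receptor, from 3.78 ± 1.09 to 0.760 ± 0.407 CPM.

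Notch and Wnt genes moved far in both directions, 9 of 25 higher and 12 lower. Called members over 2-fold were 7 higher and 4 lower, against 6.89% and 4.57% of all genes tested. DLL4, a Notch ligand, stood at 93.9, 97.5 and 92.8 CPM in the parental libraries and 8.85, 8.15 and 8.03 CPM in the resistant libraries (log2 -3.51 ± 0.066, adjusted p = 1.42e-16). The receptors NOTCH3 and NOTCH2 fell from 302 ± 2.86 to 138 ± 5.82 CPM and from 192 ± 4.53 to 104 ± 12.4 CPM, while NOTCH1 rose from 40.3 ± 2.86 to 87.9 ± 1.77 CPM and the ligand JAG2 from 5.98 ± 0.514 to 19.1 ± 1.41 CPM. Of the HES and HEY families, HEY1 and HES2 rose from 0.827 ± 0.152 to 4.37 ± 0.231 CPM and from 0.551 ± 0.268 to 2.89 ± 0.207 CPM, and HES1 was not called at 193 against 184 CPM. NRARP, a Notch target, fell from 8.699 ± 0.203 to 3.64 ± 0.230 CPM. WNT10A and WNT7A rose by 2.14 and 1.96, and WNT4 fell from 13.3 ± 0.143 to 2.85 ± 0.530 CPM. YAP pathway genes were lower in 9 of 16 and higher in 4 (6 and 5 with library sizes alone). F3, tissue factor, fell from 20.1 ± 1.55 to 5.48 ± 0.460 CPM, and ARHGEF17 rose from 11.7 ± 0.848 to 23.4 ± 1.86 CPM.

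Among further genes with the largest increases, INPP5D, a lipid phosphatase better known from blood cells, stood at 3.03, 3.77 and 3.001 CPM in the parental libraries and 52.1, 43.2 and 47.5 CPM in the resistant libraries (log2 3.87 ± 0.11). PAMR1, a secreted peptidase-like protein, rose from 1.49 ± 0.493 to 20.02 ± 2.13 CPM, DBN1, an actin-binding protein, from 8.39 ± 0.720 to 47.9 ± 5.04 CPM, ADAMTS1, a matrix protease, from 11.2 ± 0.826 to 54.7 ± 1.48 CPM, PADI3, which converts arginine to citrulline in proteins, from 9.09 ± 0.467 to 44.4 ± 2.05 CPM, and CLCA2, a surface regulator of chloride currents, from 14.3 ± 0.445 to 64.6 ± 2.82 CPM. HSD17B14, a dehydrogenase of steroids, rose from 4.996 ± 1.17 to 24.4 ± 3.54 CPM.

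Enzymes that process foreign and endogenous small molecules rose in 14 of 26 and fell in 8 (median log2 0.47, and 17 and 6 with library sizes alone). Of the called members 10 were over 2-fold higher and 5 over 2-fold lower, against 6.89% and 4.57% of all genes tested. SULT2A1, which sulfates steroids and bile acids, stood at 0.111, 0.181 and 0.112 CPM in the parental libraries and 7.59, 7.17 and 8.001 CPM in the resistant libraries (log2 5.79 ± 0.25, adjusted p = 2.39e-12). In counts that is 14 in the parental libraries together and 836 in the resistant ones. DHRS2, a reductase, stood at 3.23, 2.32 and 2.78 CPM in the parental libraries and 34.6, 33.1 and 31.98 CPM in the resistant libraries, and CYP4B1, a monooxygenase, at 92.7, 86.8 and 89.8 CPM in the parental libraries and 272, 259 and 249 CPM in the resistant libraries. The retinaldehyde dehydrogenases ALDH1A1 and ALDH1A3 rose from 14.1 ± 1.14 to 52.4 ± 2.07 CPM and from 18.9 ± 1.803 to 68.2 ± 1.72 CPM, and CYP2S1 from 9.12 ± 1.02 to 35.1 ± 1.94 CPM. CYP24A1, which inactivates vitamin D, stood at 28.5, 30.01 and 25.6 CPM in the parental libraries and 3.68, 3.13 and 3.96 CPM in the resistant libraries, and CYP1B1 and CYP4F3 fell from 11.5 ± 1.22 to 5.09 ± 1.098 CPM and from 73.1 ± 1.26 to 32.95 ± 3.06 CPM. CYP4F8, of the urothelial list, had 0 counts in the parental libraries against 83 in the resistant ones. With the same scaling as for GSTA1, the exact 95% lower limit of the increase of CYP4F8 was 20.9-fold. Reads of CYP4F genes can be shared.

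Of 30 genes of cholesterol and fatty acid synthesis, 17 fell and 2 rose (median log2 -0.20, and 11 and 5 with library sizes alone). HMGCS1, an early enzyme of cholesterol synthesis, was not called at 76.8 against 72.1 CPM. STARD4, a sterol carrier, fell from 149 ± 0.365 to 71.6 ± 1.52 CPM, and LSS, which closes the sterol ring, from 12.2 ± 2.98 to 6.33 ± 0.606 CPM. Glycolytic and hypoxia genes fell in 17 of 29 and rose in 4 (median -0.27, and 13 and 9 with library sizes alone). LDHA, lactate dehydrogenase, stood at 1219, 1199 and 1218 CPM in the parental libraries and 726, 739 and 721 CPM in the resistant libraries, PKM, pyruvate kinase, fell from 4717 to 3581 CPM, and CA12, a carbonic anhydrase, from 152 ± 4.13 to 95.5 ± 3.25 CPM. ALDOC and ENO1 rose from 1.23 ± 0.390 to 2.94 ± 0.650 CPM and from 774 ± 6.38 to 936 ± 42.6 CPM.

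In proline, aspartate and glutamine metabolism 9 of 17 genes rose and 4 fell (median log2 0.22, and 12 and 3 with library sizes alone). PYCR1, which makes proline, rose from 73.6 ± 3.18 to 136 ± 10.6 CPM, while GLUL, glutamine synthetase, fell from 879.6 ± 4.72 to 506 ± 3.89 CPM. ASPA, which codes for aspartoacylase, went from 4 to 284 counts, 67.5-fold more after the same scaling as for GSTA1 (interval 26.1 to 250). PRODH, which degrades proline, had parental values of 0.139, 0.0301 and 0.0 CPM and resistant values of 4.57, 1.08 and 0.440 CPM. Its log2 fold change, 5.05 ± 0.89, became 3.66 when resistant replicate 1 was left out and 6.80 when parental replicate a was. Genes of ATF4 and amino acid supply rose in 13 of 25 and fell in 6 (18 and 3 with library sizes alone). ATF3, NUPR1 and TRIB3, stress-induced regulators, rose by 1.08, 0.96 and 0.86, and ASNS, asparagine synthetase, from 7.17 ± 0.326 to 11.3 ± 1.005 CPM, whereas ATF4 itself was not called at 837 against 847 CPM. Among the 6 lower members were CHAC1, CEBPB and AARS1, at log2 -0.48, -0.44 and -0.43. Chaperones of the endoplasmic reticulum were lower in 12 of 20 and higher in 5 (6 and 6, with a median of 0.01, with library sizes alone). DNAJC3 fell from 112 ± 4.57 to 67.7 ± 3.41 CPM and HERPUD1 rose from 109 ± 2.52 to 173 ± 2.42 CPM. Lysosome and autophagy genes were lower in 16 of 26 and higher in 6 (median -0.22, and 11 and 8 with library sizes alone). CTSS, a cathepsin of antigen processing, fell from 483 ± 8.12 to 174 ± 6.03 CPM, ATG7, which activates ubiquitin-like proteins in autophagy, from 76.03 ± 1.62 to 28.9 ± 0.851 CPM, and TFEB, a lysosomal transcription factor, rose from 3.67 ± 0.868 to 5.71 ± 0.576 CPM.

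Genes for ribosomal proteins and ribosome assembly were mostly higher. Of 39 tested ribosomal protein genes 35 were higher and none lower (median log2 0.35), and their summed level was 22630 to 23190 CPM in parental and 27520 to 31770 CPM in resistant libraries. No member changed over 2-fold. RPL23 rose from 266 ± 8.14 to 438 ± 34.3 CPM and RPS2 from 588 ± 1.08 to 932 ± 107 CPM, while RPS27 and RPL7A were not called, at 175 against 161 CPM and 568 against 589 CPM. Ribosomal protein genes have many processed pseudogenes, which can share their reads. Ribosome biogenesis genes rose in 20 of 23 and fell in 1 (median 0.41). RRP9 and RRP12, of ribosomal RNA processing, rose from 30.8 ± 0.187 to 48.9 ± 2.66 CPM and from 50.1 ± 1.503 to 77.5 ± 0.451 CPM. POLR1B, a subunit of RNA polymerase I, was the 1 lower member at -0.14, and stood at 0.03 with library sizes alone. Its call was lost without any library other than resistant replicate 3 (adjusted p = 0.0608 to 0.121).

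Nuclear genes of the respiratory chain rose in 27 of 39 and fell in 1 (median log2 0.25). NDUFV1, which binds NADH in complex I, rose from 62.1 ± 3.303 to 112 ± 8.03 CPM, ATP5MC1, a ring subunit of ATP synthase, from 31.1 ± 1.48 to 50.8 ± 5.35 CPM, and NDUFB5 from 19.1 ± 1.503 to 30.7 ± 3.33 CPM. SDHB, of complex II, was called lower at -0.16, stood at 0.01 with library sizes alone, and lost its call without parental replicate a or c or resistant replicate 2 or 3 (adjusted p = 0.0543 to 0.134). Genes that express the mitochondrial genome rose in 17 of 33 and fell in 6 (median 0.16, and 23 and 3 with library sizes alone). TFB2M, a transcription factor of mitochondria, rose from 24.4 ± 1.34 to 45.4 ± 0.691 CPM, SSBP1, which coats single-stranded mitochondrial DNA, from 36.2 ± 2.65 to 59.5 ± 17.6 CPM, and the coactivator gene PPARGC1A from 0.588 ± 0.231 to 1.45 ± 0.314 CPM.

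Transcripts of the mitochondrial genome took 1.63%, 1.64% and 1.65% of all counts in the parental libraries and 1.99%, 1.94% and 2.02% in the resistant libraries. The groups did not overlap, and the ratio of means was 1.21 (exact two-sided permutation p = 0.1, the smallest that 3 against 3 libraries allow). For the protein genes alone the ratio was 1.25, and for the ribosomal RNAs MT-RNR1 and MT-RNR2 it was 1.07. These ratios are shares of all counts, taken without TMM factors. With TMM factors, a comparison added after seeing the data, the summed level was 17300 to 17430 CPM in parental and 18380 to 18980 CPM in resistant libraries, a ratio of 1.08, with 1.11 for the protein genes and 0.956 for the ribosomal RNAs. Of 37 genes 21, all of them tRNA genes, had no count in any library and so did not pass the filter. The remaining 16 were 9 higher, 3 lower and 4 not called (14 higher and 1 lower with library sizes alone). MT-CO3, a subunit of cytochrome oxidase, stood at 821, 818 and 826 CPM in the parental libraries and 1357, 1267 and 1274 CPM in the resistant libraries (log2 0.66 ± 0.035). MT-ND2 of complex I rose by 0.50 ± 0.037, MT-CYB of complex III by 0.40 ± 0.038, and MT-ATP6 by 0.40 ± 0.036. MT-CO1, of the same enzyme as MT-CO3, was not called, at 4918 against 5002 CPM. MT-ND4L fell by 0.34 on the log2 scale, MT-ND5 by 0.12 and MT-RNR2 by 0.09. The last 2 turned with library sizes alone, to 0.05 and 0.08, and MT-RNR2 was at 0.02 with upper quartile factors. The call of MT-ND5 was lost without parental replicate b or c or resistant replicate 1 or 2, and that of MT-RNR2 without parental replicate a or resistant replicate 2 (adjusted p = 0.0505 to 0.0922). Per kilobase of exon, MT-CO1 had the highest level in both groups, at 3189 and 3244 CPM, followed by MT-CO2 at 2351 and 2778 CPM. MT-ND6 and MT-TP are encoded on the light strand, and with the strand setting of the counts not given, antisense reads could enter their values.

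**Figure D4:**
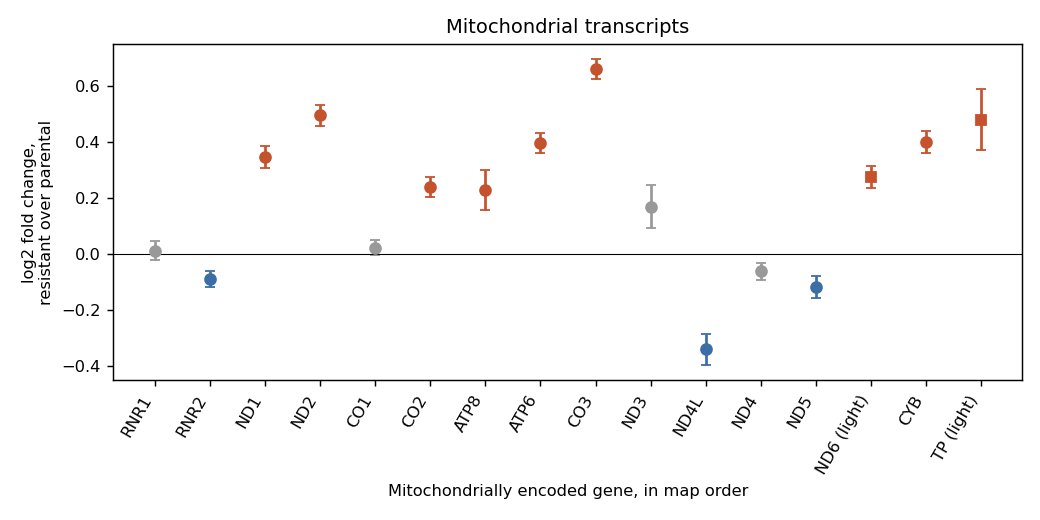
Log2 fold change, resistant over parental, of the 16 tested mitochondrially encoded genes in map order, with ± as defined in the text. Orange was called higher, blue lower and grey not called, and squares are genes of the light strand. MT-CO3 is highest at 0.66 and MT-ND4L lowest at -0.34, and MT-ND5 and MT-RNR2 turn above 0 with library sizes alone.

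**Figure D5:**
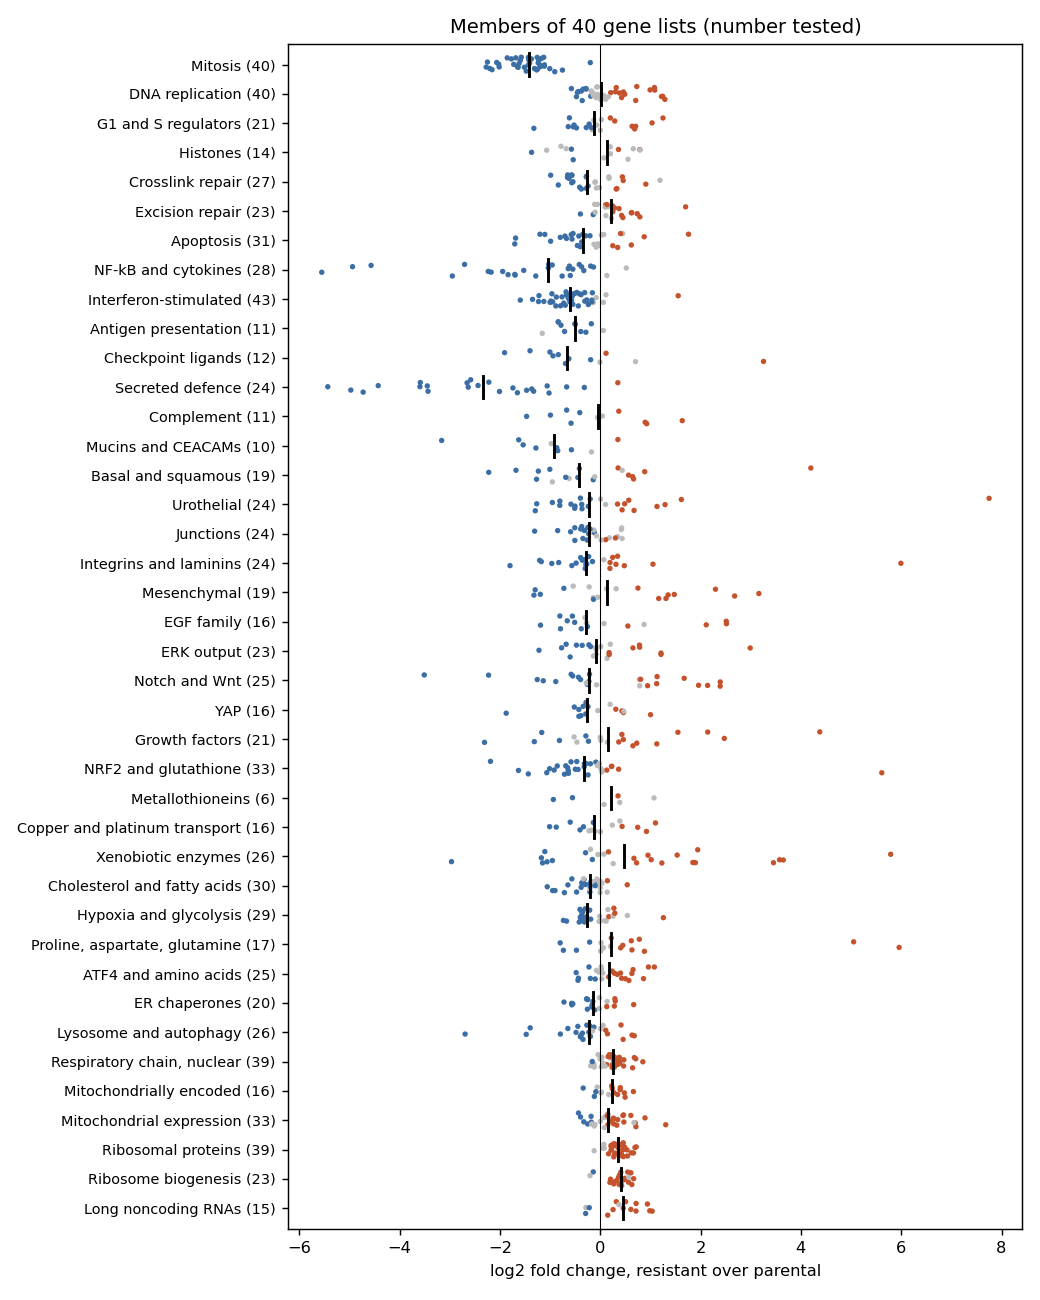
Each point is a tested member of a gene list and each black bar the median of the list, on the log2 fold change scale, resistant over parental. Orange was called higher, blue lower and grey not called. Mitosis (-1.43), secreted defence (-2.33) and NF-kB (-1.03) lie to the left, ribosomal lists at 0.35 and 0.41 to the right; the medians of G1 and S regulators, copper and platinum transport, ERK output, ER chaperones and complement change sign with library sizes alone.

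Long noncoding RNAs were called higher more often than lower, 481 against 201 of 2193 tested, with a median log2 fold change of 0.19, whereas protein-coding genes were 3781 higher and 4326 lower of 13026. Scarce genes of all classes leaned the same way. Under 1 CPM 522 were higher and 194 lower (median 0.23), and at 1 to 10 CPM 1387 and 602 (median 0.20). Long noncoding RNAs held only 0.962% to 1.23% of all counts, and whether their lean differs from that of other scarce genes was not tested. Of 15 tested long noncoding RNAs chosen for their abundance in cancer cells, 11 rose and 2 fell. The snoRNA host genes ZFAS1, GAS5 and SNHG12 rose from 34.4 ± 1.55 to 70.5 ± 5.47 CPM, from 225 ± 7.91 to 369 ± 12.3 CPM and from 30.2 ± 1.99 to 46.2 ± 1.11 CPM, and DANCR from 7.44 ± 0.989 to 14.8 ± 1.48 CPM. UCA1, known from urothelial carcinoma, fell from 187 ± 1.73 to 153 ± 5.44 CPM, and NEAT1, the scaffold of paraspeckles, rose from 1458 ± 16.9 to 1823 ± 21.1 CPM.

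The changes were spread over the genome. The median log2 fold change per autosome lay between -0.08 on chromosome 21 and 0.09 on chromosome 19. Of 293 windows of 10 Mb with at least 10 tested genes, the medians lay between -0.18 and 0.17 from the 10th to the 90th percentile. The highest was 0.55, over 23 genes at 60 to 70 Mb of chromosome 9, but it was -0.01 over genes averaging 10 CPM or more. Of its genes with the smallest p, MIR4477B, LERFS and ZNF658 rose at levels under 10 CPM. LERFS went from log2 3.00 to 3.63 without parental replicate b. The lowest was -0.52, over 33 genes at 170 to 180 Mb of chromosome 3, and -0.33 without resistant replicate 3. There LINC02015, a long noncoding RNA, fell from 69.96 ± 1.61 to 11.2 ± 0.474 CPM, TNFSF10 and the mitotic gene ECT2 fell, and ZMAT3, a zinc-finger gene that regulates splicing, rose from 14.2 ± 1.54 to 44.1 ± 3.85 CPM.

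Replicates differed little beside these changes. Over 9304 genes averaging 10 CPM or more, log2 CPM correlated at 0.997 to 0.998 among parental, 0.993 to 0.996 among resistant and 0.934 to 0.945 across groups. Of these genes, 4 differed over 2-fold between the highest and lowest parental library and 7 between the highest and lowest resistant library.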

How the data were processed

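RNA of 3 parental and 3 cisplatin-resistant RT4 libraries was sequenced, and the authors deposited raw counts per Ensembl gene for these 6 libraries, on hg38 per the submitters' processing notes. For this table the sources used here name no aligner, counter, annotation or strand setting, so reads of overlapping, antisense and near-identical genes may be shared or lost. The resistant columns name their samples. The parental columns are headed NC, match no parental title, and were taken as parental because the vector controls of the series have columns of their own in the other table, which was not used.

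All 62700 identifiers had an entry in the gene-name table, and 42343 had a symbol. Positions came from GENCODE 29, and 58207 identifiers had one. Promoters came from RefSeq (GRCh38.p14), with 27305 entries covering 11468 tested genes. Counts were filtered with filterByExpr, scaled with TMM factors and tested with edgeR 4.0.16 (quasi-likelihood F test, R 4.3.3) over the 6 libraries, with no covariate and Benjamini-Hochberg adjustment. For single genes an exact permutation test of 3 against 3 libraries cannot go below p = 0.1. Counting intervals are exact 95% intervals and cover counting error only. Correlations between libraries and principal components used log2 of CPM plus 1.

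The members and the gene lists were chosen with earlier results of these data known. Of 44 lists with 1095 genes, 1093 genes matched, and 1 list and some genes are not reported here. The text names the marker genes, the 12 genes with the largest increase and the 12 with the largest decrease at a mean of at least 10 CPM, and the 8 with the largest gain and the 8 with the largest loss in mean CPM. The ranking by increase and decrease left out pseudogenes, antisense and unnamed loci, and genes whose groups overlapped. The text also names up to 3 called members per direction and list at a mean of at least 1 CPM, the 15 mitochondrial rRNA and protein genes, and 4 genes of each extreme window. Not every gene of that rule is printed. Other list members, and genes printed with their promoters, were chosen as examples after their values were seen.

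Replicates of a group were not copies of each other: a chi-square per degree of freedom of their counts was 3.52 to 3.61 for parental and 5.33 to 11.04 for resistant pairs. The test was run on counts simulated 3 times from the means, library sizes and dispersions of these libraries, 16542 genes with 200 changed, as many raised as lowered. Changes of 1.25-fold were found in 36%, of 1.5-fold in 65.3%, of 2-fold in 74% and of 4-fold in 95.3%, and unchanged genes made up 7.73% of the calls. In the real comparison 54.5% of tested genes were called and TMM factors differed between the groups. The simulation holds neither, so its rates do not carry over to the real calls. Alternatives were other scaling factors, no filter or at least 1 CPM in 3 libraries, mitochondrially encoded genes left out, DESeq2 1.42.0, limma-voom (limma 3.58.1), glmTreat for changes over 1.5-fold, a replicate block, and leaving out each library in turn.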

Additional observations from a re-analysis of the deposited data

How the results depend on the processing

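Counts of genes called higher and lower were 4520 and 4679. They were 4520 and 4688 with DESeq2's size factors in edgeR, 4367 and 4585 with DESeq2, 4526 and 4708 with limma-voom, 4613 and 4699 with no filter, 4325 and 4420 with at least 1 CPM in 3 libraries, and 4516 and 4673 with mitochondrially encoded genes left out. Leaving out 1 library in turn gave 4007 to 4433 higher and 4293 to 4624 lower. With library sizes alone 3111 genes were lower. A test for changes over 1.5-fold called 1042 higher and 1065 lower, and left 7 replication, 16 NF-kB, 18 interferon and 5 squamous members, 1 nuclear respiratory chain member and 1 mitochondrially encoded member in each list's more frequent direction. It also left 1 excision repair, 2 crosslink repair, 1 G1 and S, 1 platinum transport, 2 ribosomal protein and 0 ribosome biogenesis members, of 13, 15, 9, 6, 35 and 20 called without that limit. These smaller counts follow from the stricter test. With library sizes alone 14 mitochondrially encoded members were called higher, and RAD23B (log2 0.024), SDHB (0.0052), POLR1B (0.027), SLC31A1 (0.028), MCM4 (0.15), MT-ND4 (0.10), MT-ND5 (0.048) and MT-RNR2 (0.077) changed direction, as MT-RNR2 did with upper quartile factors (0.019). These turns follow the shift of all genes that the scaling brings. The resistant to parental ratio of the mitochondrial share of counts was 1.25 over protein genes and, chosen after seeing the data, 1.08 for summed CPM with TMM factors. The highest window median was -0.014 over genes averaging 10 CPM or more, and the lowest was -0.53 to -0.33 when 1 library was left out. The cell cycle homology region lay in 15.95% of the promoters of all genes called lower, and the cause of these differences was not tested. With a replicate block, 4437 genes were higher and 4607 lower, and 8924 calls kept their direction. The numbers do not pair the libraries: the parental columns are tied to no sample, and deviations of same-numbered libraries correlated at -0.03, 0.05 and -0.08. Depth limits the precision for genes under 1 CPM.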

Other observations

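Of the genes averaging 10 CPM or more, 7 differed over 2-fold between resistant libraries. LY6E, which codes for a surface protein induced by interferon, stood at 7.03, 51.2 and 6.40 CPM in resistant replicates 1, 2 and 3, against 10.4, 9.61 and 25.8 CPM in parental libraries a, b and c. SBNO2 stood at 5.11, 40.1 and 26.0 CPM, and SCRIB, a cell polarity gene, at 3.38, 27.8 and 9.61 CPM. Resistant replicate 2 was the highest for LY6E, SBNO2 and SCRIB, and the groups overlapped in each. An entry named CD99, a surface glycoprotein, stood at 26.7, 7.54 and 25.3 CPM in resistant replicates 1, 2 and 3. Its parental values were 27.7, 1.51 and 29.8 CPM in libraries a, b and c. This entry had no position in the annotation used. Whether its reads are shared with another entry of CD99 was not tested. The last 3 were FAM83H, NAP1L4, a histone chaperone, and EIF3C, a translation initiation subunit that has a near-identical copy. NAP1L4 and EIF3C were called higher by edgeR although their groups overlapped. These genes were picked by their spread, and no cause was tested.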
